A study of Homo sapiens with 2 samples.

Results

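The mitochondrial genome and the nuclear genes that copy, transcribe and process it were followed by sequencing poly(A)-selected RNA of Huh7, an established cell line from a human liver cancer. A culture had spent 48 h in medium with homochlorcyclizine dihydrochloride, an antihistamine, and its reference culture 48 h in medium with DMSO, the solvent. The sources used here do not state the dose. Each condition is 1 library of 1 line, so every difference below lies between 2 libraries, no test between conditions can be made and no p-value is given. The members were taken by gene symbol from a list of 42 genes, of the 19927 gene symbols in the deposited count table. They are the 13 protein-coding genes of mitochondrial DNA and 29 nuclear genes, and all 42 were found.

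Mitochondrial DNA is a small circle read from both strands into long precursor RNAs. The heavy strand precursor carries all but a single one of the protein-coding messages, and ND6 alone comes from the light strand. Transfer RNAs lie between most messages and are cut out to free them, after which most but not all messages receive short poly(A) tails. The messages are held by RNA-binding proteins and are translated on mitochondrial ribosomes into core subunits of the respiratory chain. Every protein of these steps is made from a nuclear gene. Hepatocytes are rich in mitochondria.

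The homochlorcyclizine library held 40791119 counts and the DMSO library 38133894 counts. Levels in CPM are counts scaled by the library total and a TMM factor, which corrects for composition. A ratio is homochlorcyclizine over DMSO. The range in brackets after a ratio is its 95% interval from counting error alone. Of all genes, 12353 had a mean of at least 1 CPM, and their median log2 ratio was -0.01. The 7 hepatocyte and hepatoma markers, among them ALB and AFP, summed to 19578 CPM with homochlorcyclizine and 21905 CPM with DMSO. Of these 7, 3 were above a ratio of 1 and 4 below. APOB at 1.44 (1.42 to 1.46) and SERPINA1 at 1.34 (1.33 to 1.36) were higher, and AFP at 0.725 (0.722 to 0.728) was lower. Of the defining markers of other cell types, none was at 0. PTPRC, CD3E, VWF and CDH5 had between 2 and 10 counts in each library. Of the leukocyte markers, LYZ stood at 527 CPM with homochlorcyclizine and 446 CPM with DMSO. CD68 was at 17.0 CPM with homochlorcyclizine and 13.9 CPM with DMSO. PECAM1, an endothelial marker, was at 5.63 CPM with homochlorcyclizine and 11.7 CPM with DMSO. The 4 fibroblast and stellate markers summed to 10.7 CPM with homochlorcyclizine and 11.8 CPM with DMSO. Most of that was COL1A1, at 8.92 CPM with homochlorcyclizine and 8.40 CPM with DMSO, a ratio of 1.06 (0.911 to 1.24). COL3A1 had 5 counts with homochlorcyclizine and 43 with DMSO, and ACTA2 8 with homochlorcyclizine and 50 with DMSO. PDGFRB had 58 with homochlorcyclizine and 36 with DMSO. The part that other cells might have in the results was not tested. In bulk RNA, fewer cells of a type and less RNA per cell cannot be told apart.

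Most mitochondrially encoded messages were higher and most of their nuclear factors were lower in the homochlorcyclizine library. Of the 13 mitochondrial genes, 11 were above a ratio of 1, against 48.9% of all genes at 1 CPM or more. Of 28 nuclear members with counts, 27 were below a ratio of 1, against 51.1% of all genes. The median log2 ratio was 0.40 over the mitochondrial genes and -0.56 over the nuclear members. Single changes were small. None of the 13 mitochondrial genes was at least 2-fold higher, where 5.81% of all genes were. Of the nuclear members, 2 of 28 (7.14%) were at least 2-fold lower, against 5.10% of all genes, which is a share near the background. At a size of 1.5-fold, 2 of 13 mitochondrial genes were higher (15.4%), against 14.1% of all genes. At the same size 8 of 28 nuclear members were lower (28.6%), against 14.1% of all genes. The mitochondrial genes share precursor RNAs and are not independent of each other.

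Some neighbouring messages share bases, and the sources used here do not state how reads over these bases were assigned. The stretches are shown to describe where neighbouring genes share bases or meet. They do not settle which of the 13 values are separate. ATP8 and ATP6, subunits of ATP synthase, overlap by 46 bases, and ND4L and ND4 of complex I by 7 bases. Each pair is carried by a single message. ND5 on the heavy strand ends directly beside the end of ND6 on the light strand, so their final codons face each other. The sequences are from GENCODE release 29 on GRCh38, written 5′ to 3′. Capitals mark the shared bases in the first pair of lines. In the last pair they mark the last codon of each gene.
ATP8 into ATP6, chrM:8507-8592, plus strand: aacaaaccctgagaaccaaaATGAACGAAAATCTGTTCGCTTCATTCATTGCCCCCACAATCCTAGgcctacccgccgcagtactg
ND4L into ND4, chrM:10740-10786, plus strand: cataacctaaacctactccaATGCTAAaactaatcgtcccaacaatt
End of ND5, chrM:14119-14148, plus strand: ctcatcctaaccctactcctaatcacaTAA
End of ND6, chrM:14149-14178, minus strand: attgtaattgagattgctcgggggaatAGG

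The shared stretch of 46 bases is a large part of ATP8, which is 207 bases long, and a small part of ATP6, at 681 bases. The 7 bases between ND4L (297 bases) and ND4 (1378 bases) are few in either gene. ND5 ends at position 14148, and ND6, read in the opposite direction, ends at position 14149 of chromosome M. ND6 and the RNA made opposite to it cannot be told apart unless strand was used in counting.

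Levels between genes are compared in FPKM, which are scaled to gene length and library total. COX1, the catalytic subunit of complex IV (chromosome M, 5904 to 7445), was the most abundant, at 5705 FPKM with homochlorcyclizine and 6129 FPKM with DMSO. COX2, which receives electrons from cytochrome c (7586 to 8269), stood at 5473 FPKM with homochlorcyclizine and 4917 FPKM with DMSO. COX3 (9207 to 9990) stood at 4797 FPKM with homochlorcyclizine and 4949 FPKM with DMSO. These 3 complex IV genes filled the top 3 places in both libraries, with COX2 and COX3 exchanging places. The next places were held by ATP6 and ND4, which also exchanged. ATP6, the proton channel subunit of ATP synthase (8527 to 9207), was at 3463 FPKM with homochlorcyclizine and 3108 FPKM with DMSO. ND4, a proton-pumping subunit of complex I (10760 to 12137), was at 3930 FPKM with homochlorcyclizine and 2672 FPKM with DMSO. Its partner on the message, ND4L (10470 to 10766), was at 2379 and 1662 FPKM in the same order of libraries.

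The lower places held CYTB and the other complex I genes. CYTB, the core of complex III (14747 to 15887), was at 1853 FPKM with homochlorcyclizine and 1531 FPKM with DMSO. ND2 (4470 to 5511) was at 1832 FPKM with homochlorcyclizine and 1393 FPKM with DMSO, next to ND1 (3307 to 4262) at 1690 FPKM with homochlorcyclizine and 1286 FPKM with DMSO. These 2 genes lie first among the messages of the heavy strand and kept places 8 and 9 in both libraries. ND5 (12337 to 14148) was at 1625 FPKM with homochlorcyclizine and 936 FPKM with DMSO. ND6 (14149 to 14673) was at 1478 FPKM with homochlorcyclizine and 855 FPKM with DMSO. Per length, the counts at the light-strand gene were thus close to those of its heavy-strand neighbour in both libraries. They may include RNA made opposite to ND6, so they are not read as the level of the light-strand message alone. The lowest were ATP8 (8366 to 8572), at 838 FPKM with homochlorcyclizine and 613 FPKM with DMSO, and ND3 (10059 to 10404). ND3 was at 692 FPKM with homochlorcyclizine and 628 FPKM with DMSO. From the highest to the lowest gene the level spanned 8.25-fold in the homochlorcyclizine library and 10.0-fold in the DMSO library. The spread between cultures was not measured, so neighbours in this order cannot be said to differ.

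**Figure D1:**
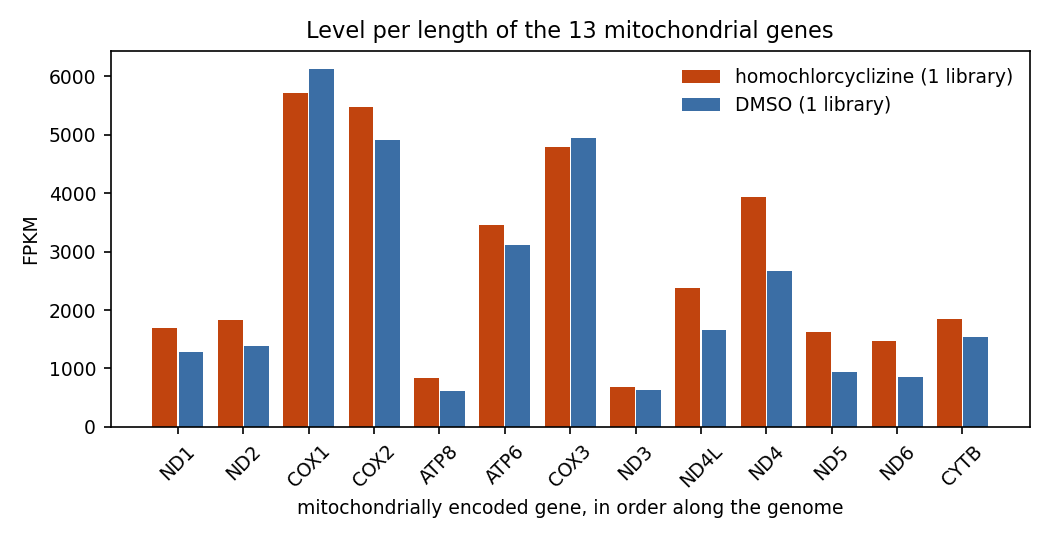
FPKM (linear axis from 0) of the 13 mitochondrially encoded genes in order along the genome, with 1 bar per library. COX1, COX2 and COX3 stand highest in both libraries, at 4797 to 5705 FPKM with homochlorcyclizine and 4917 to 6129 FPKM with DMSO.

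The genes differed in how far they moved, and on the reported scale ND5, ND6, ND4 and ND4L of complex I had the highest ratios. ND5 had a ratio of 1.74 (1.73 to 1.76) and ND6 a ratio of 1.74 (1.70 to 1.77). Their intervals overlap, and they were the 2 mitochondrial genes past 1.5-fold. RNA made opposite to ND6 may enter its counts, so the 2 values may not be separate. ND4 followed at 1.48 (1.47 to 1.49) and ND4L at 1.44 (1.41 to 1.46). The 2 genes of this shared message lay within a few percent of each other, although their counting intervals do not meet. ND2 and ND1 had ratios of 1.32 (1.31 to 1.34) and 1.32 (1.30 to 1.34), which cannot be told apart by counting error. ND3 had the lowest ratio within complex I at 1.11 (1.07 to 1.14). The order depends on the scale, and which scale is closer to the true change was not tested. Once the trend of the ratio with GC content and length over all genes was removed, the log2 ratios were 1.17 for ND6, 0.98 for ND4L, 0.95 for ND5 and 0.76 for ND4. ND3 at 0.62 was then level with ND1 at 0.61 and near ND2 at 0.67.

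Of the other complexes, ATP8 had the highest ratio. CYTB had a ratio of 1.22 (1.20 to 1.23). ATP6 had one of 1.12 (1.11 to 1.13), and COX2 one of 1.12 (1.11 to 1.13). ATP6, COX2 and ND3 have intervals that overlap. ATP8 was higher than its message partner ATP6, at 1.37 (1.32 to 1.42), and the counts of both summed gave 1.13 (1.12 to 1.14). With the trend in GC content and length removed, ATP8 was at a log2 ratio of 1.01, second to ND6 among all 13 genes. COX3 and COX1 were the 2 genes below 1, with ratios of 0.973 (0.966 to 0.980) and 0.935 (0.930 to 0.939). Their log2 ratios were above 0, at 0.22 for COX3 and 0.058 for COX1, once the same trend was removed. Set against the fold of COX1, the fold of ND5 was 1.87 times as large and that of ND6 1.86 times.

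**Figure D2:**
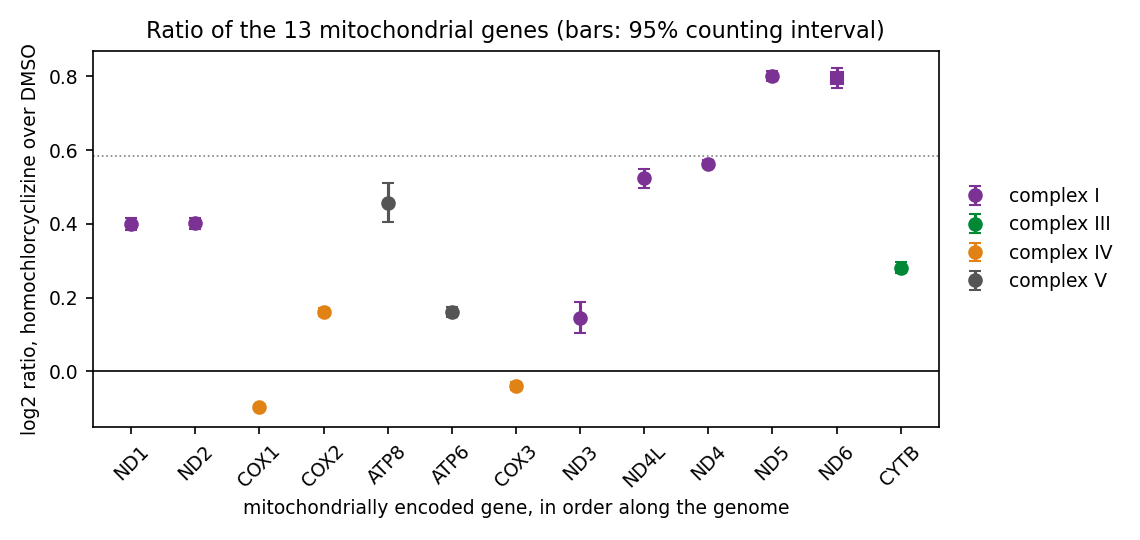
Log2 ratio of homochlorcyclizine over DMSO for the 13 mitochondrially encoded genes in order along the genome, coloured by complex (V is ATP synthase). The square marks ND6 on the light strand, bars are 95% counting intervals and the dotted line is 1.5-fold. ND5 and ND6 lie highest at 0.80, and COX1 and COX3 lie below 0, where they turn positive once the trend with GC content and length is removed.

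The unequal ratios changed the make-up of the mitochondrial reads. The 13 genes took 3.46% of all counts in the homochlorcyclizine library (3.45% to 3.46%, exact Clopper-Pearson) and 2.99% in the DMSO library (2.98% to 2.996%). Within them, the 7 complex I genes took 39.4% with homochlorcyclizine and 30.8% with DMSO. The 3 complex IV genes took 47.2% with homochlorcyclizine and 55.8% with DMSO. CYTB took 6.12% with homochlorcyclizine and 5.84% with DMSO, and the ATP synthase pair 7.33% with homochlorcyclizine and 7.50% with DMSO. These shares add up to the whole, so a larger share of one complex makes those of the others smaller. As sums, the complex I genes had a ratio of 1.48 (1.48 to 1.49) and the complex IV genes one of 0.980 (0.977 to 0.984).

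Position along the heavy strand did not order the ratios closely. Over the 12 heavy-strand genes, Spearman's rho of log2 ratio with position was 0.36, as a description of genes that share precursors and libraries. ND1 and ND2, the first along the strand, had ratios of 1.32. COX1, COX2, ATP6, COX3 and ND3 lay below them and ATP8 above. ND4L, ND4 and ND5 were the highest of the 12, and CYTB after them was at 1.22. Over the 13 genes, rho was -0.36 with GC content, which ran from 39.6% to 47.7%, and 0.01 with length. It was -0.54 with the DMSO level in FPKM, a value that also enters the ratio. Nuclear DNA holds copies of stretches of mitochondrial DNA, and reads shared with such copies were not tested.

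Replication of mitochondrial DNA is carried out by a small set of nuclear-encoded proteins. POLG2, the accessory subunit that clamps the polymerase to its template (chromosome 17, 64477785 to 64497054), was at 8.28 CPM with homochlorcyclizine and 17.5 CPM with DMSO. Its ratio of 0.472 (0.413 to 0.539) made it 1 of the 2 members past 2-fold. TWNK, the helicase that opens the DNA ahead of the polymerase, was at 31.6 CPM with homochlorcyclizine and 50.0 CPM with DMSO, a ratio of 0.631 (0.588 to 0.678). SSBP1, which coats single-stranded DNA, was at 94.7 CPM with homochlorcyclizine and 142 CPM with DMSO, a ratio of 0.668 (0.641 to 0.696). All 3 measured replication genes were lower in the homochlorcyclizine library, and TWNK shares 149 exonic bases with MRPL43 on the opposite strand.

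POLG, the catalytic subunit of the polymerase, was listed at 0 counts in both libraries. POLGARF, a reading frame whose gene (chromosome 15, 89330208 to 89333809) lies within the span of POLG (89316320 to 89334824), was also listed at 0. A count of 0 allows up to 3 counts, which is 0.0737 CPM with homochlorcyclizine and 0.0785 CPM with DMSO. POLG also shares 431 exonic bases with FANCI on the opposite strand. Reads over overlapping genes can be dropped in counting, and the sources used here do not state the setting. Whether that gave the zero was not tested, and the zero is not read as a lack of POLG message. POLG takes no part in any count or median.

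Transcription is run by a single-subunit RNA polymerase with a few helpers, and all 5 measured genes of this class were lower. TFAM, which packs mitochondrial DNA and opens its promoters (chromosome 10, 58385410 to 58399220), was at 75.0 CPM with homochlorcyclizine and 111 CPM with DMSO. Its ratio was 0.676 (0.645 to 0.709). POLRMT, the RNA polymerase (chromosome 19, 617221 to 633537), was at 49.1 CPM with homochlorcyclizine and 72.0 CPM with DMSO, a ratio of 0.682 (0.643 to 0.723). TFB2M, which melts the promoter with POLRMT, was at 36.0 CPM with homochlorcyclizine and 53.1 CPM with DMSO, a ratio of 0.678 (0.634 to 0.726). The intervals of these 3 genes of the initiation complex overlap. With the trend in GC content and length removed they lay further apart, at log2 ratios of -0.83 for POLRMT, -0.52 for TFAM and -0.38 for TFB2M, and POLRMT was then past 1.5-fold. TEFM, the elongation factor, was at 11.5 CPM with homochlorcyclizine and 17.3 CPM with DMSO, a ratio of 0.668 (0.593 to 0.754). TFB1M, which methylates the small ribosomal RNA, was at 18.3 CPM with homochlorcyclizine and 25.4 CPM with DMSO, a ratio of 0.719 (0.653 to 0.792). All 5 genes of this class had overlapping intervals, and none was past 1.5-fold. TEFM, and SSBP1 of the replication genes, lay just outside at a log2 ratio of -0.58. Scaled by library totals without TMM, both were past 1.5-fold, at -0.59.

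The MTERF family binds mitochondrial DNA or ribosomal RNA and was the most spread out. MTERF3, which in mice holds back transcription and serves ribosome assembly, had the lowest reported ratio of all members. It was at 6.29 CPM with homochlorcyclizine and 13.9 CPM with DMSO, a ratio of 0.452 (0.388 to 0.525). With the trend in GC content and length removed it was at a log2 ratio of -0.91 and POLG2 at -0.96, so neither was then past 2-fold and POLG2 was the lowest. MTERF2 was the only nuclear member above a ratio of 1, at 15.6 CPM with homochlorcyclizine and 14.4 CPM with DMSO. Its ratio of 1.08 has an interval that holds 1 (0.960 to 1.21). MTERF1, which ends transcription behind the ribosomal RNA genes, was at 16.5 CPM with homochlorcyclizine and 23.5 CPM with DMSO, a ratio of 0.703 (0.636 to 0.778). MTERF4, a ribosome assembly factor, was at 14.8 CPM with homochlorcyclizine and 21.3 CPM with DMSO, a ratio of 0.694 (0.623 to 0.772). MTERF1 and MTERF4 thus lay beside the transcription factors, with MTERF2 and MTERF3 to either side.

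Processing genes, which cut transfer RNAs out of the precursors, were lower too. ELAC2, which cuts at the 3′ ends, was at 56.5 CPM with homochlorcyclizine and 96.3 CPM with DMSO, a ratio of 0.586 (0.556 to 0.618). HSD17B10 and TRMT10C are subunits of the mitochondrial RNase P, which cuts at the 5′ ends. HSD17B10 was at 83.0 CPM with homochlorcyclizine and 123 CPM with DMSO, a ratio of 0.676 (0.646 to 0.706). TRMT10C was at 87.1 CPM with homochlorcyclizine and 117 CPM with DMSO, a ratio of 0.742 (0.710 to 0.775). PRORP, the nuclease subunit of the same enzyme, was chosen after its values were seen and had a ratio of 0.771 (0.706 to 0.842). Of this class, ELAC2 alone was past 1.5-fold.

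Genes of message stability and decay ranged widely. LRPPRC and SLIRP encode the 2 partners of a complex that stabilises mitochondrial messages. LRPPRC was the most abundant nuclear member in CPM, at 275 CPM with homochlorcyclizine and 309 CPM with DMSO, a ratio of 0.890 (0.867 to 0.913). SLIRP had 844 counts with homochlorcyclizine and 1336 counts with DMSO, a ratio of 0.593 (0.543 to 0.647). The intervals of the partners do not meet, and SLIRP was past 1.5-fold. That call ended with the trend in GC content and length removed, at a log2 ratio of -0.39 for SLIRP and -0.21 for LRPPRC. SLIRP shares 118 exonic bases with SNW1 on the opposite strand. PNPT1, a 3′ to 5′ exonuclease, was at 76.0 CPM with homochlorcyclizine and 139 CPM with DMSO, a ratio of 0.547 (0.524 to 0.572). SUPV3L1, the helicase that works with PNPT1 in the degrading complex, was at 25.2 CPM with homochlorcyclizine and 33.8 CPM with DMSO, a ratio of 0.746 (0.687 to 0.810). PNPT1 was past 1.5-fold, also with that trend removed, at a log2 ratio of -0.75. MTPAP, the poly(A) polymerase, was at 61.3 CPM with homochlorcyclizine and 77.2 CPM with DMSO, a ratio of 0.794 (0.752 to 0.837). GRSF1, a protein of the RNA granules, was at 113 CPM with homochlorcyclizine and 128 CPM with DMSO, a ratio of 0.879 (0.844 to 0.916). All 6 genes of this class were below 1 with intervals that exclude 1.

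The FASTK family of RNA-binding proteins, which act on single messages and on ribosomal RNA, had a median log2 ratio of -0.35 over 6 genes. FASTK, needed for the ND6 message, was at 63.4 CPM with homochlorcyclizine and 64.9 CPM with DMSO, and its ratio of 0.976 has an interval that holds 1 (0.923 to 1.03). FASTKD5, which serves cuts where no transfer RNA lies between messages, had a ratio of 0.903 (0.847 to 0.962), and FASTKD1 one of 0.843 (0.782 to 0.909). These were the 3 least changed of the family. TBRG4, also called FASTKD4, had a ratio of 0.731 (0.696 to 0.768), and FASTKD2 one of 0.678 (0.645 to 0.713). FASTKD3 was lowest, at 9.88 CPM with homochlorcyclizine and 16.7 CPM with DMSO, a ratio of 0.591 (0.521 to 0.671). TACO1, an activator of COX1 translation, was at 28.7 CPM with homochlorcyclizine and 46.3 CPM with DMSO, a ratio of 0.620 (0.575 to 0.668). FASTKD3 and TACO1 were past 1.5-fold. With the trend in GC content and length removed the call of FASTKD3 ended, at a log2 ratio of -0.49, and that of TACO1 held, at -0.68. Exons are also shared with a gene on the opposite strand by FASTKD2 (MDH1B), MTERF4 (SNED1) and TFB1M (TIAM2) and with one on the same strand by FASTKD5 (UBOX5), and the part of such reads was not tested.

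**Figure D3:**
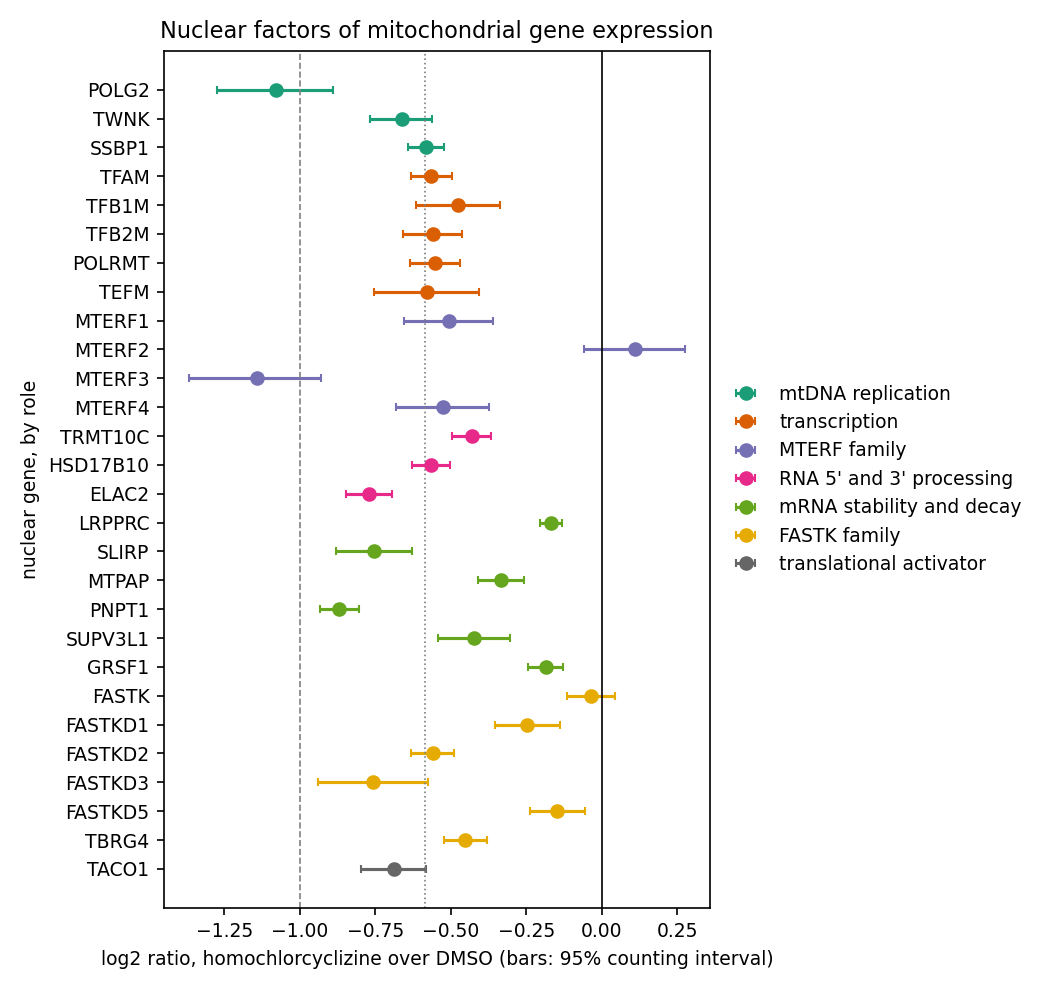
Log2 ratio of homochlorcyclizine over DMSO for the 28 nuclear members with counts, by role. Bars are 95% counting intervals, the dotted line is 1.5-fold lower and the dashed line 2-fold lower. All but MTERF2 lie below 0, and POLG2 and MTERF3 lie beyond the dashed line.

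Levels of the nuclear members were far below those of the messages they act on, in RNA selected with poly-T. The part that tail length had in levels, shares and ratios was not tested. Over the 28 genes the median was 14.1 FPKM with homochlorcyclizine and 18.6 FPKM with DMSO. HSD17B10 was highest per length, at 87.6 FPKM with homochlorcyclizine and 130 FPKM with DMSO. Summed, the 28 genes came to 1493 CPM with homochlorcyclizine and 2032 CPM with DMSO. Spearman's rho of the log2 ratio with mean CPM was 0.24 and with GC content 0.01 over these 28 genes, as a description.

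Promoters of nuclear members were searched for known motifs to describe what the members share in sequence. The windows are the 250 bases before the RefSeq start on GRCh38.p14, found for 26 of the 29 nuclear members. A stretch of the site of NRF1, a known activator of such genes (GCGCATGC, searched on both strands), was present in 4 of 26, against 4.71% of 10134 promoters of genes at 1 CPM or more. These 4 were MTPAP, POLRMT, TFB1M and TFB2M. The core bound by ETS factors such as GABPA (CCGGAAGT on either strand) was present in 5 of 26, namely ELAC2, MTERF1, MTERF4, POLRMT and TRMT10C, against 7.23% of all. The E-box CACGTG was in none of the 26, against 8.92% of all. A match is only a description of letters, and so is its absence.

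The promoters below are those of the 2 lowest and 2 highest nuclear members for which the table has a sequence and of TFAM, in their last 120 bases before the start. POLRMT is added in full because it alone holds both kinds of match, which are in capitals. All are written 5′ to 3′ in the direction of the gene. The first 5 hold none of the 3 motifs in the searched window.
POLG2 promoter, chr17:64497055-64497174, minus strand: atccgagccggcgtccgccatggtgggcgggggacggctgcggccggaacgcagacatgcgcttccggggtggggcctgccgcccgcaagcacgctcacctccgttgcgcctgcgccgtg
PNPT1 promoter, chr2:55693845-55693964, minus strand: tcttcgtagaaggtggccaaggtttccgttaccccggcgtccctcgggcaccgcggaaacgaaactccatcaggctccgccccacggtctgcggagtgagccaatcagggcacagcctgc
TFAM promoter, chr10:58385290-58385409, plus strand: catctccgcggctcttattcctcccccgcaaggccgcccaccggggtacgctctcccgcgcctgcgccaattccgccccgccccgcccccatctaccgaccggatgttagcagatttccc
FASTK promoter, chr7:151080810-151080929, minus strand: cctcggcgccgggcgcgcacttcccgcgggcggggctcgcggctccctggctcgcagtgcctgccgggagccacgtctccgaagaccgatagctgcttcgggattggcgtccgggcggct
MTERF2 promoter, chr12:106987147-106987266, minus strand: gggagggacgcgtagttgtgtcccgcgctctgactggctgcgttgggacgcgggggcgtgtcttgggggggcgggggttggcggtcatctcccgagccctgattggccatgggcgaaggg
POLRMT promoter, chr19:633538-633787, minus strand: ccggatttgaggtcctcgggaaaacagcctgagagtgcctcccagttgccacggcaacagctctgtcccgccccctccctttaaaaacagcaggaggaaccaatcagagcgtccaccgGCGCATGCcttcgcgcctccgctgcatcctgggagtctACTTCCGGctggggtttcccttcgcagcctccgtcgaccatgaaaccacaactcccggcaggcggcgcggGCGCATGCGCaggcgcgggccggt

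Other nuclear genes that serve the mitochondrial genome were mostly lower as well. Of 23 genes of mitochondrial DNA maintenance, 20 were below a ratio of 1 (87.0%, against 51.1% of all genes). At least 2-fold lower were 5 (21.7%, against 5.10% of all genes), and none was 1.5-fold higher, where 14.1% of all genes were. Their median log2 ratio was -0.35. DNA2 and FEN1, which trim flaps and also act in nuclear replication, had ratios of 0.332 (0.298 to 0.370) and 0.402 (0.387 to 0.418). SAMHD1, which breaks down deoxynucleotides, had one of 0.366 (0.321 to 0.417), and MGME1, a mitochondrial exonuclease, one of 0.459 (0.433 to 0.486). Of 33 genes of mitochondrial RNA maturation and modification at 1 CPM or more, 30 were below 1 (90.9%, against 51.1% of all genes). Their median was -0.45. At 1.5-fold, 5 of them were lower (15.2%, against 14.1% of all genes, which is near the background) and 1 was higher (3.03%, against 14.1%). MTO1 and GTPBP3, which together modify transfer RNAs, had ratios of 0.594 (0.557 to 0.634) and 0.624 (0.569 to 0.685). MRM1, which methylates ribosomal RNA, had one of 0.536 (0.444 to 0.646). The higher gene was NSUN4, the partner of MTERF4 in ribosome assembly, with 2718 counts with homochlorcyclizine and 1604 counts with DMSO, a ratio of 1.59 (1.49 to 1.69).

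Translation genes followed the same direction. Of 20 factors and activators of mitochondrial translation, 16 were below 1 (80.0%, against 51.1% of all genes), with a median of -0.34. At 1.5-fold, 6 were lower (30.0%, against 14.1% of all genes) and none was higher. The elongation factors GFM1 and TSFM had ratios of 0.588 (0.555 to 0.622) and 0.643 (0.593 to 0.697), the initiation factor MTIF2 one of 0.627 (0.593 to 0.664) and LETM1 one of 0.590 (0.559 to 0.622). Mitochondrial ribosomal proteins were a set added after values were seen. Of 76 at 1 CPM or more, 75 were below 1 (98.7%, against 51.1% of all genes), with a median of -0.50. At 1.5-fold, 29 were lower (38.2%, against 14.1% of all genes).

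Of 14 regulators of mitochondrial biogenesis at 1 CPM or more, 11 were below 1 (78.6%, against 51.1% of all genes), with a median of -0.10. At 1.5-fold, 1 was higher and 1 was lower (7.14% each way, against 14.1% of all genes each way). NRF1 was at 15.9 CPM with homochlorcyclizine and 19.9 CPM with DMSO, a ratio of 0.799 (0.719 to 0.889). GABPA was at 44.5 CPM with homochlorcyclizine and 46.8 CPM with DMSO, with a log2 ratio of -0.07 and an interval of the ratio that holds 1 (0.890 to 1.01). ESRRA, a nuclear receptor of the same programme, had a ratio of 1.20 (1.14 to 1.27). The coactivators split. PPARGC1B had a ratio of 0.610 (0.550 to 0.675) and PPRC1 one of 0.761 (0.718 to 0.805). PPARGC1A, under the limit of 1 CPM, had 52 counts with homochlorcyclizine and 24 counts with DMSO, a ratio of 2.03 (1.23 to 3.45). The deacetylase SIRT1 had a ratio of 1.64 (1.51 to 1.79).

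**Figure D4:**
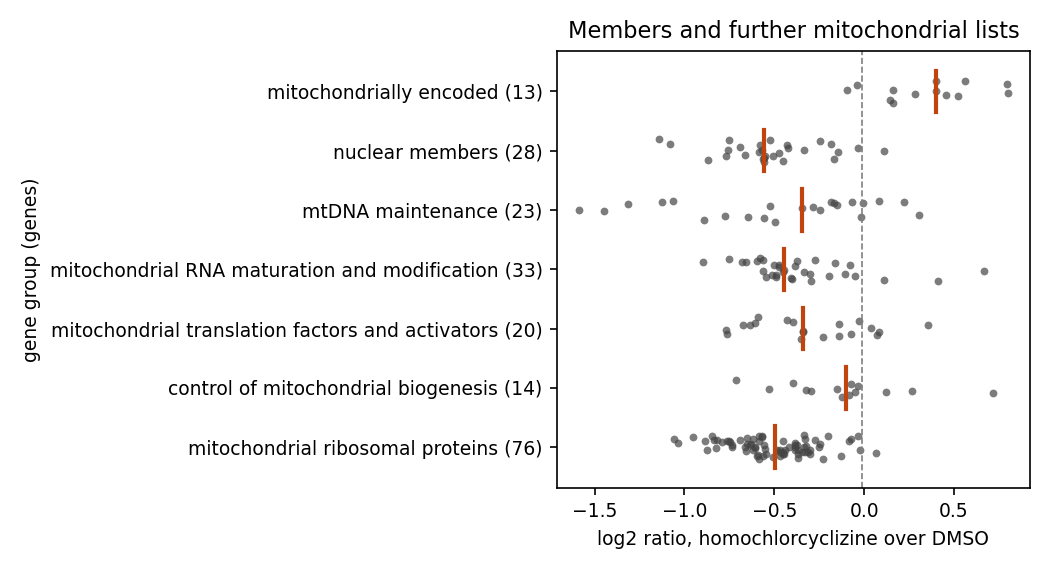
Log2 ratio of homochlorcyclizine over DMSO for the 2 groups of members and the further mitochondrial lists, with every gene at 1 CPM or more. Each point is 1 gene, the vertical bar is the median and the number of genes is in brackets. The dashed line is the median of all 12353 genes at -0.01. The mitochondrially encoded genes lie mostly to its right, with a median of 0.40, and the medians of the other groups lie to its left, between -0.56 and -0.10.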

How the data were processed

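The authors deposited raw counts per gene symbol for both libraries, whose columns the labels tie to the samples, and FPKM per library, which per the file values are the same counts scaled to length and total. Messenger RNA was selected with poly-T, per the labels' protocols. The build was hg38, per the submitters' processing notes. For the aligner, counter, strand setting and annotation the labels give nothing (not given in the sources used here). For the 13 mitochondrial genes the length implied by counts and FPKM equals that in GENCODE.

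Counts were scaled with TMM (edgeR 4.0.16, R 4.3.3), and log2 ratios took a prior count of 1 (Python 3.11.15, numpy 2.4.6, pandas 2.3.3, scipy 1.17.1). Intervals are exact 95% Clopper-Pearson intervals given the summed count. Intervals and floors cover counting error only, since PCR copies do not count as independent molecules and the spread between cultures is unknown. Genes were called at 2-fold or 1.5-fold where the interval also excluded 1, over all genes averaging 1 CPM or more. The rule was also run on simulated counts that carried counting error alone, so that run says nothing about the spread between cultures. Every member is named. Of each further list, the 4 genes with the largest absolute log2 ratio at a mean of at least 5 CPM are named, and NRF1, GABPA, PPARGC1A and ESRRA whatever their values. The members and lists were chosen with earlier results of these data known. Alternatives were scaling by totals, by totals without mitochondrial genes and by DESeq2 1.42.0 size factors, other prior counts, other filters, FPKM with a pseudocount, merging of overlapping genes and, chosen after seeing the data, removal of the trend with GC content and length. That trend was a curve fitted on 11965 genes, almost all of them nuclear, and was applied unchanged to the short mitochondrial genes. It used 1 GENCODE transcript per gene, whose length can differ from the implied length, as for TFAM (5414 against 3277 bases). Calls after its removal kept the original counting intervals. Promoters and coordinates are from RefSeq (GRCh38.p14, a patch release of hg38).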

Additional observations from a re-analysis of the deposited data

How the results depend on the processing

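No paired analysis was possible because each condition has 1 library, and for the same reason no replicate could be left out. The counts of 11 mitochondrial genes above 1 and 27 nuclear members below 1 were unchanged under other scaling, prior counts, filters and FPKM. Those settings move most ratios little, so the counts had little room to change. The mitochondrial count was 9 with overlapping genes merged and 9 without ND5 and ND6, because each step takes out 2 genes. With the trend in GC content and length removed it was 13, and the nuclear count stayed at 27. Merging ATP8 with ATP6 and ND4L with ND4, or leaving out ND5 and ND6, each gave a mitochondrial median log2 ratio of 0.28 in place of 0.40. Leaving out ATP8 and ND4L gave a mitochondrial share of 3.37% with homochlorcyclizine and 2.93% with DMSO. At 1.5-fold lower, scaling by totals called 10 nuclear members in place of 8, and FPKM with a pseudocount of 0.1 called 9. With FPKM and a pseudocount of 1, which shrinks the ratios of low genes, none of the nuclear members was 2-fold lower (0 in place of 2), and over all genes 356 were 2-fold higher and 373 2-fold lower, in place of 718 and 630, with 1097 in place of 1736 at 1.5-fold higher. With no filter on level, 1197 genes were 2-fold higher and 946 2-fold lower. Removal of the trend with GC content and length moved the medians to 0.62 for the mitochondrial genes and -0.38 for the nuclear members. It put 2 mitochondrial genes past 2-fold and 8 past 1.5-fold, left 0 nuclear members past 2-fold lower, ended the 1.5-fold calls of SLIRP and FASTKD3 while adding that of POLRMT (7 in place of 8), and turned COX1 and COX3 to log2 ratios of 0.058 and 0.22. The cause was not tested. Of 41 members, this removal moved 27 beyond their counting interval without a change of sign. DESeq2 size factors moved 1, and the other alternatives compared by member moved none. Merging overlapping genes and leaving out ND5 and ND6 were not compared by member. Values near 1 CPM have the widest counting error, and spread between cultures was not measured.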
